A study of Mus musculus with 6 samples.

Results

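The genes described here are the globins that change over development in the mouse and *Alas2*, the erythroid enzyme that starts heme synthesis. They were chosen by name, without a rule on their values but with earlier results of these data known: *Hba-x*, *Hbb-y*, *Hbb-bh1*, *Hba-a1*, *Hba-a2*, *Hbb-bt* and *Alas2*. Of these 7 genes, 6 matched one of the 23420 genes listed, and 4 had values above 0 and were tested among 17168 genes. RNA was sequenced from whole mouse lungs at stage E11.5dpc (days *post coitus*), each library being a pool of several lungs of 1 genotype. By the sample labels, the 3 control pools were *Rptor* (*Raptor*) f/+; *Shh* Cre/+, and the 3 mutant pools were *Rptor* f/f; *Shh* Cre/+. A supplementary panel of the study names the controls of this stage as *Shh* Cre/+ alone. Its methods give *Rptor* f/+; *Shh* Cre/+ littermates as controls of a later stage, and no genotype for the controls of this stage. All pools thus carried the *Shh* Cre allele, while a floxed *Rptor* allele in the controls of this stage rests on the labels. The comparison asked what loss of *Rptor*, a subunit of mTOR complex 1, changed in the lung. *Shh* Cre acts in the lung epithelium, so the blood cells inside the pools were not its target. The study collected embryos of both sexes and put mutants of several litters together for its statistics. The sex and litter of the embryos in each pool are not given. Nothing in the labels states that pools of the same number belong together. P-values therefore measure the spread between pools. Values of a group are given in the order of its pools 1, 2 and 3.

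Hemoglobin is a tetramer of a pair of alpha-type and a pair of beta-type chains, each holding a heme. In the mouse, the first red cells arise in the yolk sac and circulate with their nuclei, and they make the zeta chain of *Hba-x* with the beta-type chains of *Hbb-bh1* and *Hbb-y*. Within this primitive lineage *Hbb-bh1* is known to come first and *Hbb-y* to take its place as the cells mature. The definitive red cells of the fetal liver and the adult make adult beta chains with the alpha chains of *Hba-a1* and *Hba-a2*. These alpha chains are not confined to definitive cells. The embryonic lung is not a known site of red cell formation, and globin RNA is best known there from the blood in its vessels. In bulk RNA, fewer red cells and less RNA per red cell cannot be told apart.

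The first coding bases of the globin genes are shown because they decide which reads can be told apart. They come from the GENCODE M21 transcripts (GRCm38), and within each cluster capitals mark the bases that differ from the gene shown first, over coding bases 1 to 120.
Hba-x: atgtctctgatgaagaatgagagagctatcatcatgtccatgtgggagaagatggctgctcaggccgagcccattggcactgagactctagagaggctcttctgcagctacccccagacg
Hba-a1: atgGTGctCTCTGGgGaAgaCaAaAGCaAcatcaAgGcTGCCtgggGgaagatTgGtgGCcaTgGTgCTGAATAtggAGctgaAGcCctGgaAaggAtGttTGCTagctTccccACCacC
Hbb-y: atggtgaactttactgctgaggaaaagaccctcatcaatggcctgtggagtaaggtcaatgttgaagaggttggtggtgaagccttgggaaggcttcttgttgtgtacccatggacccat
Hbb-bh1: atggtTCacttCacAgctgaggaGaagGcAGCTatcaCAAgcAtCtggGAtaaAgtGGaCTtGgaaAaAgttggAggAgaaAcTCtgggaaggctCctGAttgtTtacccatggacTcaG
Hbb-bs: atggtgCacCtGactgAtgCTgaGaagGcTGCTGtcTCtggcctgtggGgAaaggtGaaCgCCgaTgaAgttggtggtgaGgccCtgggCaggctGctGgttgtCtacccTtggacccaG
*Hbb-bs* and *Hbb-bt* are the pair of adult beta genes, and *Hba-a2* and *Hbb-bt* had the same 120 bases as *Hba-a1* and *Hbb-bs*. Over the whole coding sequence *Hbb-y* and *Hbb-bh1* were 76.4% identical, with no identical run longer than 26 bases. *Hba-x* and *Hba-a1* were 61.7% identical over 426 coding bases. *Hba-a1* and *Hba-a2* differed at 1 base of 426, and *Hbb-bs* and *Hbb-bt* at 1 base of 441. No 50-base stretch of the *Hba-x*, *Hbb-y* or *Hbb-bh1* transcript occurred in a transcript of another gene. In contrast, 67.5% of such stretches of *Hba-a1* and 86.9% of *Hba-a2* were shared between the pair, and 65.8% of *Hbb-bs* were shared with *Hbb-bt*. The 3 embryonic globins could thus be counted without overlap, whereas values of the adult genes depend on how shared reads were treated.

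The genes lie in 2 clusters. *Hba-x* (chr11:32276400-32278116, plus strand) is followed by *Hba-a1* (chr11:32283511-32284465) and *Hba-a2* (chr11:32296489-32297298). *Hbb-y* (chr7:103851749-103853216), *Hbb-bh1* (chr7:103841637-103843164), *Hbb-bs* (chr7:103826534-103828096) and *Hbb-bt* (chr7:103812524-103813996) lie on the minus strand in this order, the embryonic genes before the adult ones. *Alas2* is on the X chromosome (chrX:150547375-150570638, plus strand). All coordinates are of GRCm38.

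The libraries were of like depth, with 20197642 to 21276090 reads assigned to genes, recovered from the steps of the normalized counts. *Rptor* was at 2126, 2193 and 2279 normalized counts in the control pools and at 2023, 2137 and 2148 in the mutant pools, which overlap (log2 fold change -0.06 ± 0.05 SE, limma adjusted p = 0.584 with Benjamini-Hochberg adjustment). The share of lung epithelium in the pools was not measured, and marker genes of the epithelium were present in every pool. The cause of the overlap in *Rptor* was not tested. Across all genes, 86 of 17168 passed an adjusted p under 0.05 (limma on log2(normalized count + 1), Benjamini-Hochberg), of which 32 were higher and 54 lower in mutants, and this count moved between 1 and 468 when 1 pool was left out.

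*Hbb-y*, which encodes the embryonic epsilon-y chain, was the most abundant globin. Its normalized counts were 54097, 52476 and 56813 in the control pools, against 62073, 49708 and 60769 in the mutant pools. The highest and the lowest of the 6 values were both mutant pools, mutant 1 and mutant 2, and the control pools lay between them. By mean normalized count *Hbb-y* ranked 10 of the 23420 genes listed. The mutant and control pools differed by 0.07 ± 0.08 (SE) on the log2 scale, with a 95% interval from -0.10 to 0.24 (limma adjusted p = 0.727, Benjamini-Hochberg). Without mutant 2 the difference was 0.17 (limma adjusted p = 0.333, unadjusted p = 0.00968), and without mutant 1 it was 0.014.

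*Hba-x*, which encodes the embryonic zeta chain, followed in rank 15. It was at 42768, 37940 and 50493 normalized counts in the control pools, and at 47590, 37984 and 44897 in the mutant pools. Control 3 was highest and control 2 lowest, with mutant 2 beside control 2. The difference between groups was -0.00 ± 0.10 (SE) on the log2 scale, with a 95% interval from -0.23 to 0.22 (limma adjusted p = 0.990, Benjamini-Hochberg).

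*Hbb-bh1*, which encodes the embryonic beta-H1 chain, differed most between pools. It was at 9007, 4545 and 15059 normalized counts in the control pools, and at 7355, 6460 and 7049 in the mutant pools. Control 3 was 3.31 times control 2, and all 3 mutant pools lay between control 2 and control 1. The SD of log2 values was 0.87 among control pools and 0.10 among mutant pools, beside 0.06 and 0.18 for *Hbb-y*. Of the 11458 genes with a mean of at least 100, 0.192% had a control SD as large as that of *Hbb-bh1*, while 23.7% had a mutant SD as large. The group difference was -0.29 ± 0.32 (SE) on the log2 scale, with a 95% interval from -1.0 to 0.41 (limma adjusted p = 0.739, Benjamini-Hochberg). It rested on single pools: without control 2 it was -0.75 (adjusted p = 0.0657 with limma), and without control 3 its sign turned to 0.12 (adjusted p = 0.802 with limma).

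*Alas2*, which joins glycine and succinyl-CoA in the mitochondria of red cell precursors, was at 1168, 1041 and 1271 normalized counts in the control pools. The mutant pools were at 1456, 964 and 1239. As for *Hbb-y*, mutant 1 was highest and mutant 2 lowest. The difference was 0.06 ± 0.13 (SE) on the log2 scale, with a 95% interval from -0.23 to 0.34 (limma adjusted p = 0.889, Benjamini-Hochberg). Thus 0 of the 4 members tested passed the adjusted threshold, which 0.501% of all tested genes passed. Likewise 0 of 4 passed an unadjusted p under 0.05, which 13.6% of tested genes passed with limma, and the 2 groups overlapped in all 4, as against 20.2% of tested genes whose groups did not overlap. With edgeR on recovered reads the adjusted p of the 4 members was 0.977 for *Hba-x*, 0.675 for *Hbb-y*, 0.538 for *Hbb-bh1* and 0.846 for *Alas2*.

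**Figure D1:**
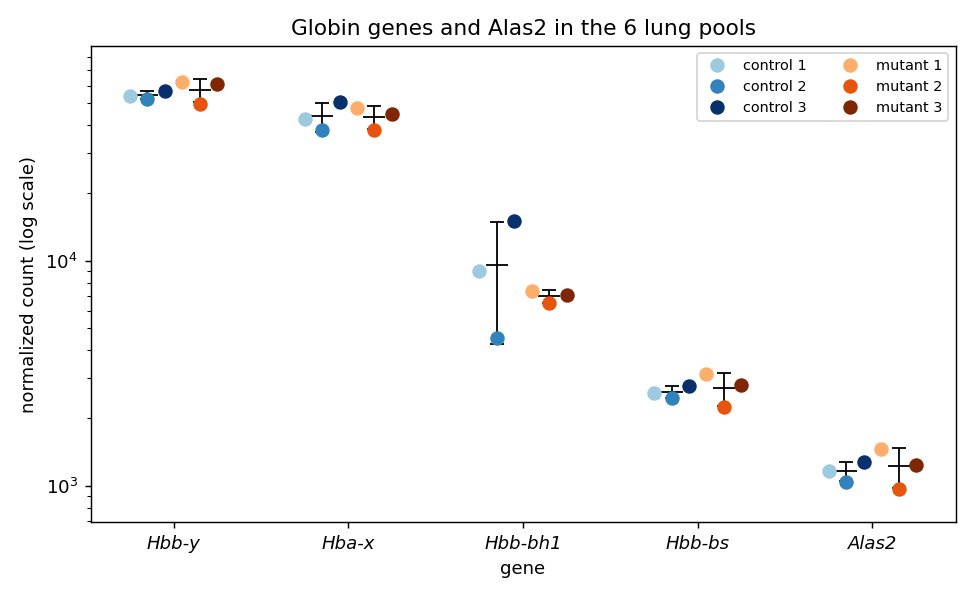
Normalized counts (log axis) of 4 globin genes and *Alas2* in each pool, one point per pool, with a bar at the mean of the 3 control and of the 3 mutant pools and whiskers of 1 SD. *Hbb-bh1* ran from 4545 in control 2 to 15059 in control 3, while its 3 mutant pools sat close together between 6460 and 7355.

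The adult alpha genes *Hba-a1* and *Hba-a2* were listed at 0 in every one of the 6 pools, as were *Hbb-b1* and *Hbb-b2*, the names of the adult beta genes of another haplotype. Of their 50-base stretches, *Hba-a1* and *Hba-a2* share 67.5% and 86.9%, while *Hbb-bs*, which had values above 0, shares 65.8% with *Hbb-bt*. The treatment of shared reads is not given, and the cause of the 0 values of *Hba-a1* and *Hba-a2* was not tested. These 0 values are not read as absence of their RNA. In all, 4320 of the 23420 genes were listed at 0 in every pool. *Hbb-bt*, the adult beta gene of the t chain, matched no gene listed and is not analysed here. *Hbb-bs*, the adult beta gene beside it, was found under its older symbol *Beta-s*, and it is the adult globin with which the balance could be described. It was at 2596, 2466 and 2772 normalized counts in the control pools, and at 3138, 2237 and 2790 in the mutant pools. As for *Alas2*, mutant 1 was highest and mutant 2 lowest, and the groups overlapped (log2 difference 0.05 ± 0.10 SE, limma adjusted p = 0.880, Benjamini-Hochberg). Because *Hbb-bs* and *Hbb-bt* share most of their sequence, the level of *Hbb-bs* may hold reads of both or lack the shared ones. The minor alpha-type gene *Hbq1b* was at 29.5, 23.8 and 33.8 in the control pools and at 33.7, 39.2 and 34.4 in the mutant pools, and *Hbq1a* and *Hbb-bh2* were at 5.88 or less in every pool.

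Levels of different genes were compared per kilobase of annotated exons. Per kilobase, *Hbb-y* was at 86038 ± 3462 in control and 90864 ± 10733 in mutant pools (normalized counts, SD, n = 3 each), and *Hba-x* at 54599 ± 7905 and 54295 ± 6186. *Hbb-bh1* was at 15557 ± 8608 and 11345 ± 742, *Hbb-bs* at 4158 ± 245 and 4334 ± 723, and *Alas2* at 569.5 ± 56.5 and 598.7 ± 121.1. The order *Hbb-y*, *Hba-x*, *Hbb-bh1*, *Hbb-bs*, *Alas2* held in every pool, and the spreads of neighbours in that order did not overlap.

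The balance between the embryonic beta genes was followed pool by pool. Of the embryonic beta level per kilobase (*Hbb-y* plus *Hbb-bh1*), *Hbb-bh1* made up 14.7%, 8.21% and 21.5% in the control pools. In the mutant pools it made up 10.9%, 11.8% and 10.7%. Control 3 was thus the pool with most of the early *Hbb-bh1* and control 2 the one with least, and the mutant pools lay between them. The log2 ratio of *Hbb-y* to *Hbb-bh1* (normalized counts) was 2.59, 3.53 and 1.92 in the control pools and 3.08, 2.94 and 3.11 in the mutant pools. The difference of the means was 0.37, which was less than the control SD of 0.81 (two-sided exact permutation test, p = 0.6, and 0.857 adjusted over 10 ratios). The smallest p that 3 pools against 3 allow is 0.1.

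The balance of embryonic against adult beta genes varied less. The adult *Hbb-bs* made up 3.96%, 4.17% and 3.72% of the beta level per kilobase (*Hbb-y*, *Hbb-bh1* and *Hbb-bs* together) in the control pools, and 4.34%, 3.85% and 3.97% in the mutant pools. The means were 3.95% ± 0.225 and 4.05% ± 0.259 (SD, n = 3 each), and the groups overlapped. The log2 of embryonic over adult beta level was 4.61 ± 0.09 in control and 4.57 ± 0.09 in mutant pools. No such share could be given for the alpha cluster, since both of its adult genes were listed at 0. Against the beta cluster, *Hba-x* stood at 53.6 ± 1.38 per 100 of embryonic beta level in control and 53.1 ± 0.927 in mutant pools (per kilobase, SD, n = 3 each), and its 6 values lay between 52.1 and 55.1. The sum over the 2 embryonic beta genes therefore followed *Hba-x* more closely than *Hbb-y* alone did, for which the log2 ratio of *Hba-x* to *Hbb-y* ran from -0.47 in control 2 to -0.17 in control 3.

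**Figure D2:**
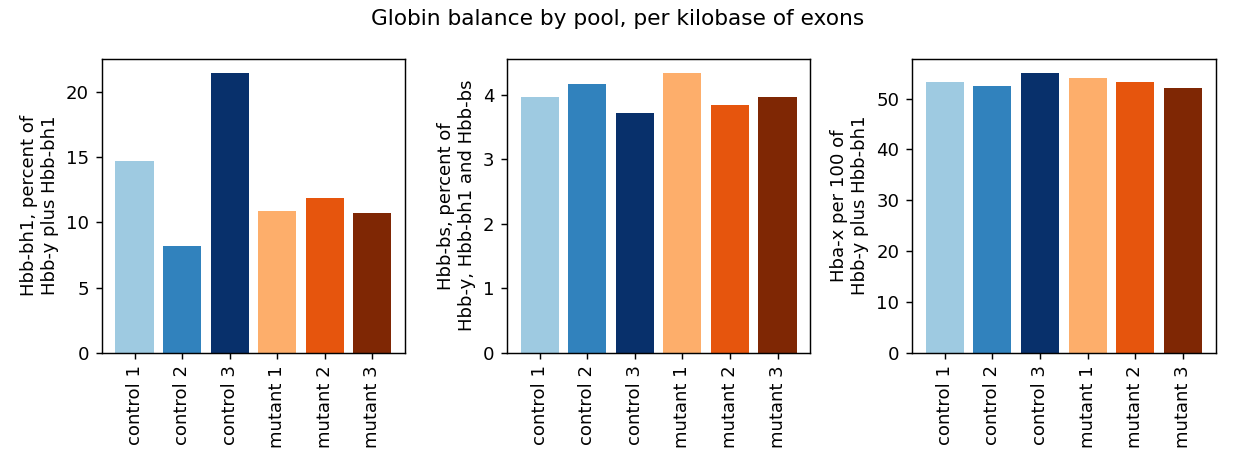
Shares in each pool, from levels per kilobase of exons, with bars from 0: *Hbb-bh1* in percent of *Hbb-y* plus *Hbb-bh1* (left), *Hbb-bs* in percent of the 3 beta genes (middle), and *Hba-x* per 100 of *Hbb-y* plus *Hbb-bh1* (right). The left share ran from 8.21 in control 2 to 21.5 in control 3, while the right one stayed between 52.1 and 55.1.

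Ratios of 2 genes of the same pool do not depend on how the library was scaled, and 10 pairs were compared. The closest pair was *Hbb-bs* with *Alas2*, whose log2 ratio was 1.15, 1.24 and 1.12 in the control pools and 1.11, 1.21 and 1.17 in the mutant pools, a range of 0.14 over the 6 pools. *Hbb-y* with *Hbb-bs* came next, with a range of 0.17, from 4.31 in mutant 1 to 4.47 in mutant 2. The 4 other pairs without *Hbb-bh1* had ranges from 0.26 to 0.30. In contrast, the 4 pairs that held *Hbb-bh1* ranged over 1.32 to 1.61, and in each of them control 2 and control 3 were the extremes, at opposite ends. None of the 10 ratios differed between the groups beyond the spread of the pools (two-sided exact permutation test, p from 0.4 to 0.9, adjusted p from 0.857 to 0.900).

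**Figure D3:**
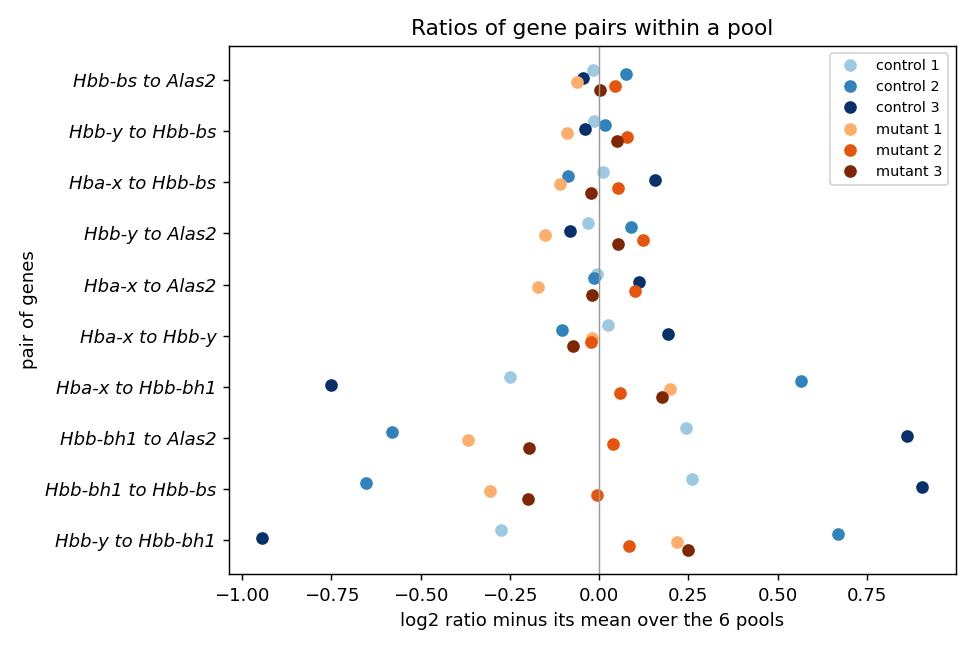
Log2 ratio of 2 genes in each pool, minus its mean over the 6 pools, for 10 pairs ordered by their range, one point per pool. The 6 upper pairs, without *Hbb-bh1*, stay within a range of 0.30, whereas the 4 lower pairs, with *Hbb-bh1*, spread over 1.32 to 1.61 with control 2 and control 3 at the ends.

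The embryonic globins made up a small part of each library. *Hba-x*, *Hbb-y* and *Hbb-bh1* together took 0.510%, 0.455% and 0.591% of assigned reads in the control pools, and 0.563%, 0.451% and 0.542% in the mutant pools. The 95% Wilson intervals, which cover counting error only, were 0.448% to 0.454% for the lowest pool (mutant 2) and 0.588% to 0.594% for the highest (control 3). The lowest and the highest pool therefore differed by more than counting error. The interval of control 2, 0.452% to 0.458%, overlapped that of mutant 2, and the groups overlapped.

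The promoters of genes whose ratios stayed close are shown for their erythroid motifs. The 120 bases before the RefSeq start site (GRCm38.p6) are given, and capitals mark 4 motifs found on either strand. CACCC is the motif of KLF proteins. CCAAT is bound by the trimer of NF-Y. AGATAA is a motif of the GATA factors, and other forms of it, such as the tgataa in *Hba-x*, were not marked. TATAA is the core of the TATA box.
Hba-x: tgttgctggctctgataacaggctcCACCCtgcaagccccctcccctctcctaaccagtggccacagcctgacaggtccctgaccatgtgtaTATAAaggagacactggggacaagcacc
Hbb-y: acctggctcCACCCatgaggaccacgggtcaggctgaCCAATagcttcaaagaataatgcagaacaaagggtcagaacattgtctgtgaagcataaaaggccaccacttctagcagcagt
Hbb-bs: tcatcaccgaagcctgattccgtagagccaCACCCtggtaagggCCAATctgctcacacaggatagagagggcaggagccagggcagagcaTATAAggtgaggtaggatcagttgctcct
Alas2: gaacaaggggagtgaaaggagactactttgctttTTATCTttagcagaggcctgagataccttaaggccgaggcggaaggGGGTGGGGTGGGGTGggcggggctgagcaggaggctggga
They lie at chr11:32276480-32276599 (plus strand), chr7:103853208-103853327 (minus), chr7:103827929-103828048 (minus) and chrX:150547297-150547416 (plus). The RefSeq start sites differ from the ends of the GENCODE gene spans given above. The bases of *Hba-x* and *Hbb-bs* thus lie inside those spans, and those of *Hbb-y* and *Alas2* lie inside them in part. All 4 held CACCC, as did 52.0% of 32851 promoters in the 250 bases before the start. CCAAT was in *Hbb-y* and *Hbb-bs* and in 33.8% of promoters. AGATAA was in *Alas2* and, within 250 bases, in *Hbb-bs*, beside 9.99% of promoters. TATAA was in *Hba-x* and *Hbb-bs* here and farther upstream in *Alas2*, beside 22.8% of promoters within 250 bases. A match describes these letters and not a bound site. *Hbb-bh1* had no entry.

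The genes that regulate globins and build the red cell were described by lists. Of the 11 erythroid transcription factors tested, 0 passed the adjusted threshold and the median log2 fold change was 0.03, beside -0.00 over all tested genes. The 3 with the highest level were *Ldb1*, which bridges enhancer and promoter, at 6278 to 6442 in control and 6580 to 6854 in mutant pools, *Zfpm1*, the partner of GATA1, and *Lmo2*. *Zfpm1* was at 1000.9, 875.0 and 1296 in the control pools and between 1037 and 1097 in mutant pools, so that control 2 was lowest and control 3 highest. *Lmo2*, an adaptor in the same complex, ran the other way, from 648.1 in control 3 to 841.2 in mutant 2. *Klf1*, the activator of the beta cluster, was at 103.1, 72.3 and 175.9 in the control pools and at 103.2, 95.1 and 131.5 in the mutant pools. At an unadjusted p under 0.05 (limma) 3 of the 11 were higher in mutant pools, *Lmo2*, *Lyl1* and *Cbfa2t3*, and 0 lower, with log2 fold changes of 0.20, 0.38 and 0.29, beside 13.6% of all tested genes in either direction. Without control 3, *Lyl1* passed the adjusted threshold (adjusted p = 0.0332, limma).

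Of the 11 regulators of globin switching, 0 passed the adjusted threshold. At an unadjusted p under 0.05 (limma) 1 was higher (*Nfix*) and 1 lower (*Lin28a*), beside 13.6% of all tested genes in either direction. The median log2 fold change of the 11 was -0.08. The most abundant were *Chd4*, a chromatin remodeler, *Igf2bp1*, an RNA-binding protein of fetal tissues, and *Bcl11a*, the repressor of embryonic and fetal globin genes. *Bcl11a* was at 1661, 1621 and 2011 in the control pools and at 1773, 1700 and 1800 in the mutant pools. *Igf2bp1* was at 5920, 5797 and 7310 in the control pools and between 5821 and 5908 in mutant pools. Both had control 3 highest and control 2 lowest, and *Chd4* was between 15111 and 16080 in all 6 pools. These genes are also expressed outside blood, and their share from blood was not measured.

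Of 16 genes of heme synthesis and iron supply, 1 passed the adjusted threshold, beside 0.501% of all tested genes in either direction. *Tfrc*, the transferrin receptor that brings iron into dividing cells and red cell precursors, was at 2189, 2159 and 2442 in the control pools and at 1618, 1523 and 1508 in the mutant pools. All mutant pools were below all control pools, and the level fell by 0.54 on the log2 scale (SE 0.06, limma adjusted p = 0.00728, Benjamini-Hochberg). *Tfrc* is expressed in many cells outside blood, the lung epithelium included, where 5 of 10 markers were also lower by the adjusted threshold, and their part in its fall was not tested. The call was lost without control 1 (adjusted p = 0.125, limma) or mutant 3 (adjusted p = 0.0871), where 1 gene of the whole table passed in either case, and with no variance trend (adjusted p = 0.172). The other highest members were *Slc25a37*, the mitochondrial iron importer, and *Alad*, the second enzyme of the pathway. *Slc25a37* was at 1956, 1716 and 2720 in the control pools and between 1736 and 2051 in mutant pools, and *Alad* ran the other way, from 1339 in control 3 to 1931 in control 2. At an unadjusted p under 0.05 (limma) *Abcb10* was also lower, beside 13.6% of all tested genes in either direction. The median log2 fold change of the 16 was -0.03.

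Of 18 genes of the red cell membrane and its skeleton, 0 passed the adjusted threshold, and the median log2 fold change was -0.02. At an unadjusted p under 0.05 (limma) 2, *Gypc* and *Aqp1*, were higher, beside 13.6% of all tested genes in either direction. *Epb41*, protein 4.1, was between 7052 and 7760 in all pools. *Slc4a1*, the band 3 anion exchanger, was at 2919, 2366 and 3963 in the control pools and at 3103, 2735 and 3072 in the mutant pools. *Gypc*, glycophorin C, was at 1258 to 1310 in control and 1398 to 1437 in mutant pools, so its groups did not overlap (log2 fold change 0.14 ± 0.05 SE, limma adjusted p = 0.205, Benjamini-Hochberg). Of 16 genes of the red cell cytosol and maturation, 0 passed either threshold (limma), and the median was 0.04. The most abundant were *Prdx2*, a peroxide-removing enzyme, at 12255 to 13483 over all pools, *Bnip3l*, which clears mitochondria from maturing red cells, at 2891 to 3260, and *Car2*, carbonic anhydrase 2, at 2116 to 2531. The last 3 are expressed in many cell types.

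Over these 4 lists together, *Alas2* included, 61 genes were tested. By the adjusted threshold 0 were higher and 1 lower, by an unadjusted p under 0.05 (limma) 5 were higher and 2 lower, and the median log2 fold change was 0.00. The 7 of 61 in that count are a share near the 13.6% of all tested genes.

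**Figure D4:**
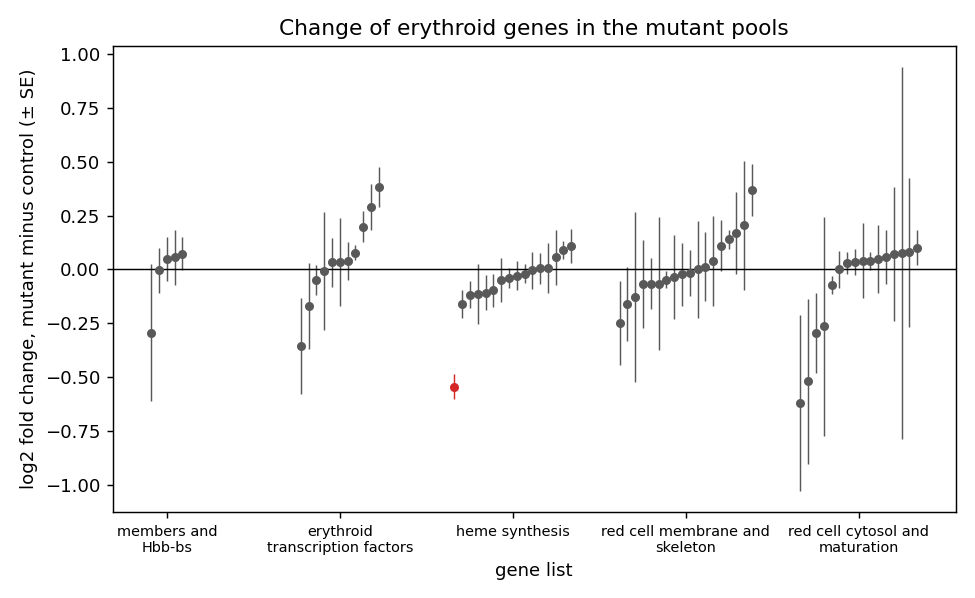
Log2 fold change (mutant minus control pools, with its SE) of 4 tested members and *Hbb-bs* and of the genes of 4 erythroid lists, each point 1 gene and ordered by value within its list. Red marks an adjusted p under 0.05, which *Tfrc* alone reached (-0.54), and the points of each list lie on both sides of 0.

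The order of the control pools seen for *Hba-x* and *Hbb-bh1* was shared by many red cell genes. After these values had been seen, genes with control 3 highest and control 2 lowest of all 6 pools were counted. In this count stood 25 of the 61 genes of the 4 lists (41.0%), beside 7.32% of all tested genes, and 11 of the 18 membrane genes. Among them *Hemgn*, a nuclear protein of red cell precursors, was at 321.2, 158.1 and 643.1 in the control pools and at 213.5, 265.7 and 194.3 in the mutant pools. *Pklr*, the red cell pyruvate kinase, was at 96.3, 38.2 and 163.0 in the control pools and at 49.0, 52.9 and 62.8 in the mutant pools. In both genes, as in *Hbb-bh1*, the mutant pools lay between control 2 and control 1. *Hbb-y*, *Hbb-bs* and *Alas2* did not have this order over 6 pools, although within the 3 control pools they too were highest in control 3 and lowest in control 2.

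**Figure D5:**
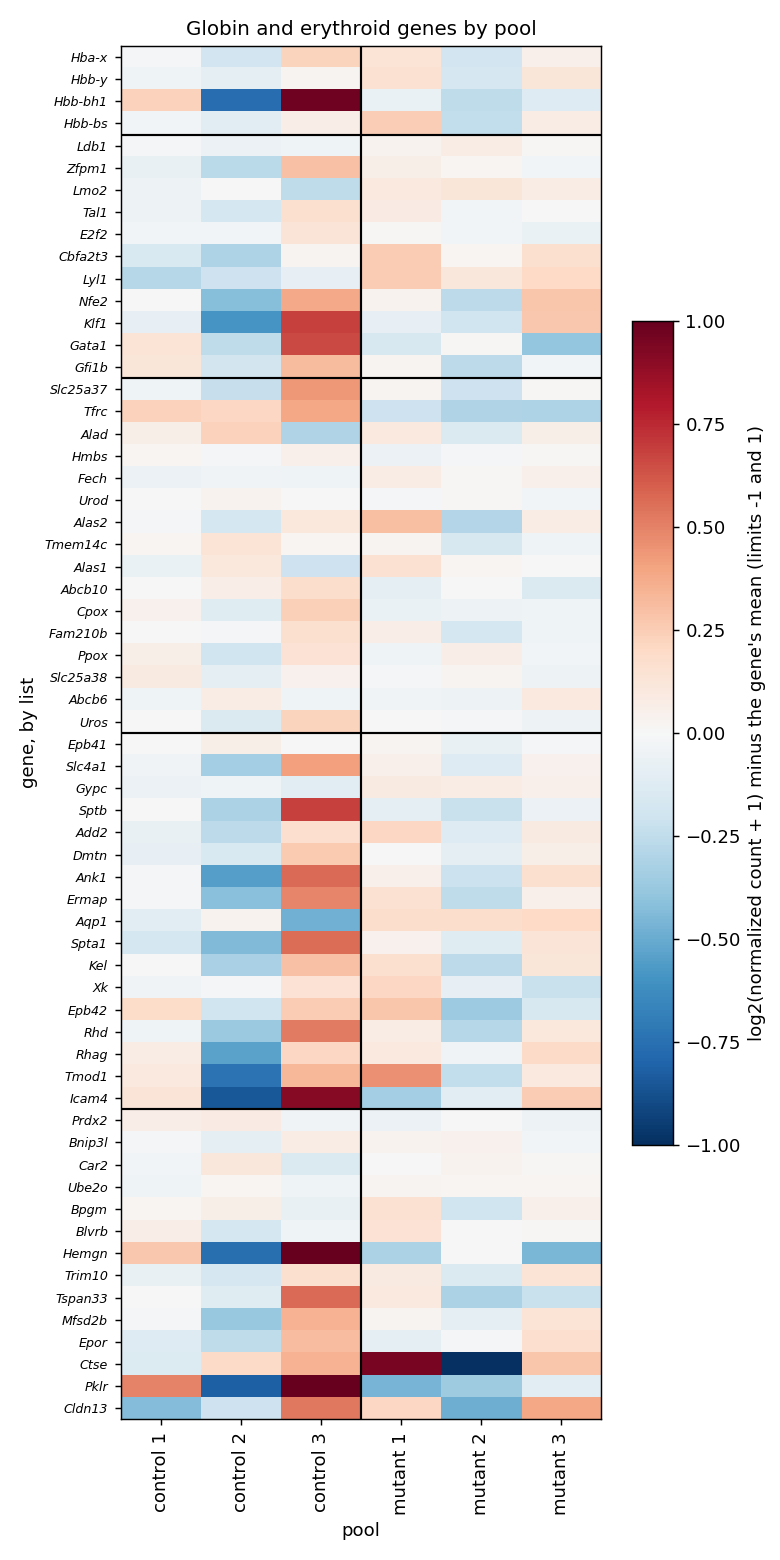
Log2(normalized count + 1) minus the gene's mean over the 6 pools, for 4 globins (top block) and 58 genes of the erythroid lists with a mean of at least 20 (blocks of transcription factors, heme synthesis, membrane and skeleton, cytosol and maturation), with red above and blue below the mean and the colour limited to 1 in either direction. The column of control 3 is red and that of control 2 blue for *Hbb-bh1*, *Klf1*, *Hemgn* and *Pklr*.

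The genes most like the embryonic globins in profile were found by the root-mean-square difference of centred log2 values over the 6 pools, among 11454 genes with a mean of at least 100. Nearest to the mean profile of *Hba-x*, *Hbb-y* and *Hbb-bh1* were *Zfp473*, *Spsb1*, *Tagln*, *Efnb2*, *Nsg2*, *Acp5*, *Slc4a1* and *Kif26b*, with differences from 0.033 to 0.053, beside 0.236 for a gene with the same value in every pool. The nearest 50 held 6 genes of the erythroid lists, which together held 61 of the 17168 tested genes. Their share among the 11454 was not counted. *Tagln*, a smooth muscle protein, was at 1234, 915.3 and 1553 in the control pools and at 1229, 964.8 and 1251 in the mutant pools. The pool order was thus shared by genes of no erythroid list too. Likeness to *Hbb-bh1* alone was computed after the data were seen, and put *Smoc1*, *Pdlim3* and *Rragd* nearest.

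Markers of other cells were read beside these results. Of 10 endothelial markers, 7 were higher in mutant pools at an unadjusted p under 0.05 (limma) and 0 by the adjusted threshold, with a median log2 fold change of 0.19 and a summed level of 14119 to 16044 in control and 16468 to 17027 in mutant pools. *Cdh5*, VE-cadherin, was the highest of them, at 3215 to 3734 in control and 3745 to 4018 in mutant pools. Over all tested genes 13.6% passed that unadjusted threshold in either direction. The groups of 6 of the 10 did not overlap, beside 20.2% of all tested genes. Of 10 platelet markers, 8 had a higher mean log2 level in mutants. *Pf4*, *Ppbp* and *Gp9* reached an unadjusted p under 0.05 (limma) without overlap of the groups, and 0 of the 10 passed the adjusted threshold. Their median log2 fold change was 0.24 and their sum 1207 to 1752 in control and 1698 to 1766 in mutant pools. *Itgb3* was highest of them, from 371.9 in control 2 to 532.8 in control 3. Blood progenitor markers summed to 3951 to 4219 and 4347 to 4566, led by *Cd34*, which endothelium also expresses, at 2379 to 2858 over all pools. Macrophage markers summed to 2434 to 3519 in control and 3131 to 3351 in mutant pools and were lowest in control 3, where *Mrc1* was at 456.2. No marker of any of these lists was at 0 in every pool.

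Liver markers were low throughout, with *Alb* between 150.2 in mutant 1 and 268.1 in control 1 and a summed level of 352.3 to 542.2 in control and 314.7 to 377.9 in mutant pools. Heart muscle markers summed to 1690 to 1831 in control and 1470 to 1591 in mutant pools, and *Actc1* was highest of them, at 509.9 in control 3 and 211.8 in mutant 2. Neither list had control 3 highest in its sum. Of 10 lung epithelial markers 5 were lower by the adjusted threshold, which 0.501% of all tested genes passed in either direction. *Cldn6* was the highest of the list, at 2729 to 3389 in control and 1680 to 2029 in mutant pools. Of 10 mesenchymal markers 2 were higher by the same threshold, *Col1a1* and *Col1a2*, the latter at 23413 to 25406 in control and 30017 to 31554 in mutant pools. The part of tissue composition in the globin values was not tested.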

How the data were processed

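Total RNA of 6 pools of whole lungs (3 or 4 lungs each) was sequenced. Per the labels, reads were trimmed with Trim Galore, aligned with HISAT2 to mm10, counted with featureCounts and handled with DESeq2, and the authors deposited 1 table of counts divided by size factors (unit: signal, normalized count). How reads shared by gene copies and strand were counted is not given in the sources used here. The deposited table also holds the authors' own comparison (means, fold changes, p-values), which was not used. Values were whole multiples of 1 step per library (100% within 0.05 reads), from which reads were recovered.

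Genes that reached a normalized count of 1 in 3 or more libraries were tested with limma 3.58.1 (lmFit, eBayes with trend) on log2(normalized count + 1), in R 4.3.3, two-sided, with Benjamini-Hochberg adjustment over all tested genes and a threshold of 0.05. Fold changes of low genes are understated on this scale. edgeR 4.0.16 (quasi-likelihood) was run on recovered reads as an alternative. Log2 ratios of 2 genes were compared by a two-sided exact permutation test over pools. Fits were tested on simulated data. Levels per kilobase used GENCODE M21 exons. Of 179 list entries, 167 matched by symbol, 6 by an older symbol and 6 not at all, and 27 symbols in the table had been turned into dates.

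The members and lists were chosen with earlier results of these data known. Named genes were the members, other globins, the 3 most abundant and every called gene of each other list, the top marker of each marker list, the 8 genes most like the embryonic globins, and *Rptor*. *Klf1*, *Lyl1*, *Lin28a*, *Nfix*, *Abcb10*, *Aqp1*, *Cbfa2t3*, *Hemgn*, *Pklr*, *Pf4*, *Ppbp*, *Gp9*, *Col1a1* and the genes of the closing section were named after their values were seen. Ratios and shares with *Hba-a1*, *Hba-a2* and *Hbb-bt* were planned and could not be computed, so *Hbb-bs* took their place. Values of 1 list gene are not reported here. Alternatives are given in the closing section.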

Additional observations from a re-analysis of the deposited data

How the results depend on the processing

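Of 191 alternative values, 158 were labelled as unchanged, and 0 of the 4 members passed the adjusted threshold under any alternative. A fold change was so labelled if its direction and side of the threshold stayed, and a count of genes if its size stayed alike. Ratios and the balance could change in direction alone. The permutation p of a ratio cannot pass 0.05 with these pools, and the balance had no test. The 86 genes called became 8 with no variance trend, and from 1 to 468 with 1 pool left out. The count was 147 without control 2 and 468 without control 3, and 1, 12, 21 and 1 without control 1, mutant 1, mutant 2 and mutant 3. The cause was not tested. The 1 gene called in the 4 erythroid lists (*Tfrc*) became 0 with no trend, and 0 to 2 with 1 pool left out, and the 7 at an unadjusted p under 0.05 became 5 to 14. *Hba-x* turned from -0.00 to 0.00043 under upper quartile scaling, and its log2 fold change ran from -0.10 to 0.10 over left-out pools. That of *Hbb-y* ran from 0.014 to 0.17, of *Hbb-bh1* from -0.75 to 0.12, of *Hbb-bs* from -0.062 to 0.18, and of *Alas2* from -0.082 to 0.22. The log2 ratio difference ran from -0.15 to 0.00077 for *Hba-x* to *Hbb-y*, from -0.015 to 0.79 for *Hbb-y* to *Hbb-bh1*, from -0.0077 to 0.076 for *Hbb-y* to *Hbb-bs*, from -0.014 to 0.64 for *Hba-x* to *Hbb-bh1*, from -0.11 to 0.013 for *Hba-x* to *Hbb-bs*, from -0.13 to 0.0089 for *Hba-x* to *Alas2*, from -0.042 to 0.096 for *Hbb-y* to *Alas2*, from -0.75 to 0.027 for *Hbb-bh1* to *Hbb-bs*, from -0.034 to 0.026 for *Hbb-bs* to *Alas2*, and from -0.079 to 0.015 for the beta embryonic to adult balance.

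Deviations of same-numbered control and mutant pools from their group means correlated across genes with r = -0.03, 0.17 and 0.06, and 1 of the 3 control pools (control 2) correlated best with its own number, so the numbers were not taken to pair the pools. The replicate block gave 71 genes called, with *Hbb-bh1* at an adjusted p of 0.598 (limma). Ratios with *Hba-a1*, *Hba-a2* or *Hbb-bt* and the alpha balance were not run, since those genes had no value above 0 or no match. With 3 pools a group, an exact permutation p cannot go below 0.1.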

Other observations

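Around the beta-globin cluster on chromosome 7, 7 genes within 1 Mb were tested, a choice made after the data were seen. *Trim12a* was listed at 0 in control 3, and was at 22.6 and 26.9 normalized counts in control 1 and 2 and at 25.5, 31.4 and 34.4 in the mutant pools. *Trim30d* was likewise listed at 0 in control 3 and was at 1.96 to 9.82 in the other 5 pools. The nearby *Trim30a* was between 28.5 and 32.4 in all 6 pools, and *Trim12c*, at 314.3, 272.7 and 407.5 in the control pools, had control 3 highest and control 2 lowest, as *Hbb-bh1* had. No gene of the 7 passed the adjusted threshold (limma, lowest adjusted p = 0.401 with Benjamini-Hochberg adjustment). Neighbours of the alpha cluster did not have the order of *Hba-x*: *Nprl3*, which holds the alpha-globin enhancers in its introns, was at 743.5, 816.1 and 719.6 in the control pools and at 666.2, 731.4 and 679.2 in the mutant pools.

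A few further genes, named after their values were seen, also had control 3 as an extreme. In the globin switching list 3 of 11 genes had control 3 highest and control 2 lowest, beside 7.32% of all tested genes. Of this list, *Lin28b* was at 388.0, 320.3 and 473.1 in the control pools and between 339.2 and 353.5 in mutant pools. *Lin28a* was at 71.7, 66.1 and 112.3 in the control pools and between 52.0 and 59.3 in mutant pools, without overlap of the groups (log2 fold change -0.54 ± 0.21 SE, limma adjusted p = 0.298 with Benjamini-Hochberg adjustment). *Nfix* was lowest in control 3 at 387.6, was at 460.7 and 526.9 in control 1 and 2, and lay between 612.5 and 625.5 in mutant pools (log2 fold change 0.44 ± 0.10 SE, limma adjusted p = 0.0975). *Twist1*, of the mesenchyme list, was at 238.7, 137.4 and 431.4 in the control pools, with control 2 lowest and control 3 highest.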
